A study of Ichthyophis bannanicus with 29 samples.

Results

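Heart-restricted genes were the assembled genes of *Ichthyophis bannanicus* that were abundant in every heart library and low in the other tissues relative to heart. The species is a caecilian, a limbless burrowing amphibian. A gene entered the list at 20 TPM (a transcript's share of its library, scaled to a sum of 1000000) or more in each of the 3 heart libraries, with a median in each of the other 9 tissues below 5% of its heart mean. The list held 56 of the 53113 genes of the deposited table, or 1.19% of the 4693 genes that reached 20 TPM in all heart libraries. Messenger RNA had been sequenced in 29 libraries: 3 of heart, 2 of ovary (replicates 1 and 3), and 3 each of testis, stomach, spleen, skin, lung, liver, kidney and blood. The labels give the tissue and a number for each library, and no treatment, age or sex. Whether 1 animal or several gave the libraries of a tissue is not stated, and p-values here thus reflect only how far the libraries spread, which may be technical.

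The heart is a pump of striated muscle, and in vertebrates its muscle cells make their own forms of the contractile and calcium-handling proteins. Atrial muscle also releases natriuretic peptides, hormones that act on the kidney and on vessels. Part of such gene sets is shared with skeletal muscle, which lies under the skin, and heart tissue also holds blood, vessels and connective tissue. The table pairs its assembly IDs with no gene names, so none of the 56 genes can be matched to these roles, and the label of the heart libraries could not be checked against known heart markers. In bulk tissue, fewer cells of a type and less RNA per cell cannot be told apart.

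Some libraries stood apart and touch the results. Lung replicate 2 held the 56 genes at a median of 1.91% of their heart mean, against 0.083% and 0.168% in the other lung libraries. For the 182 genes that the same rule gives for liver, it read 0.668% of the liver mean, against 0.003% and 0% in those libraries. Kidney replicate 1, testis replicate 1 and liver replicate 2 read 42.6%, 7.42% and 8.12% of the own-tissue mean for the lists of ovary, kidney and spleen, respectively. For the heart list they read 0.384%, 0.691% and 0.00118%, which were the lowest value of kidney, the highest of testis and the middle one of liver. Spleen replicate 1 had 18410 genes at 1 TPM or more, against 30065 and 28438 in spleen replicates 2 and 3, and 44.3% of all genes at 0. On the lists of their own tissue, lung replicates 1, 2 and 3 read 82.0%, 194% and 19.9% of the own mean. Testis replicates 1, 2 and 3 read 28.3%, 41.3% and 229%. The read depth is unknown, because TPM does not hold it.

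A few genes carried most of the signal. The heart mean ran from 28.0 to 4012 TPM with a median of 71.7 TPM, 19 genes averaged 100 TPM or more, and 8 averaged 1000 TPM or more. The first 4 genes held 58.5% of the summed heart mean of the list, and the first 8 held 80.4%. The same 8 were also the members among the 100 most abundant genes of the heart. In all, the list took 2.88%, 1.94% and 2.72% of all TPM in heart replicates 1, 2 and 3, a mean of 2.51% ± 0.502 (SD, n = 3). The rule fixes that these genes are high in heart, so levels in heart are described and not tested.

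**Figure D1:**
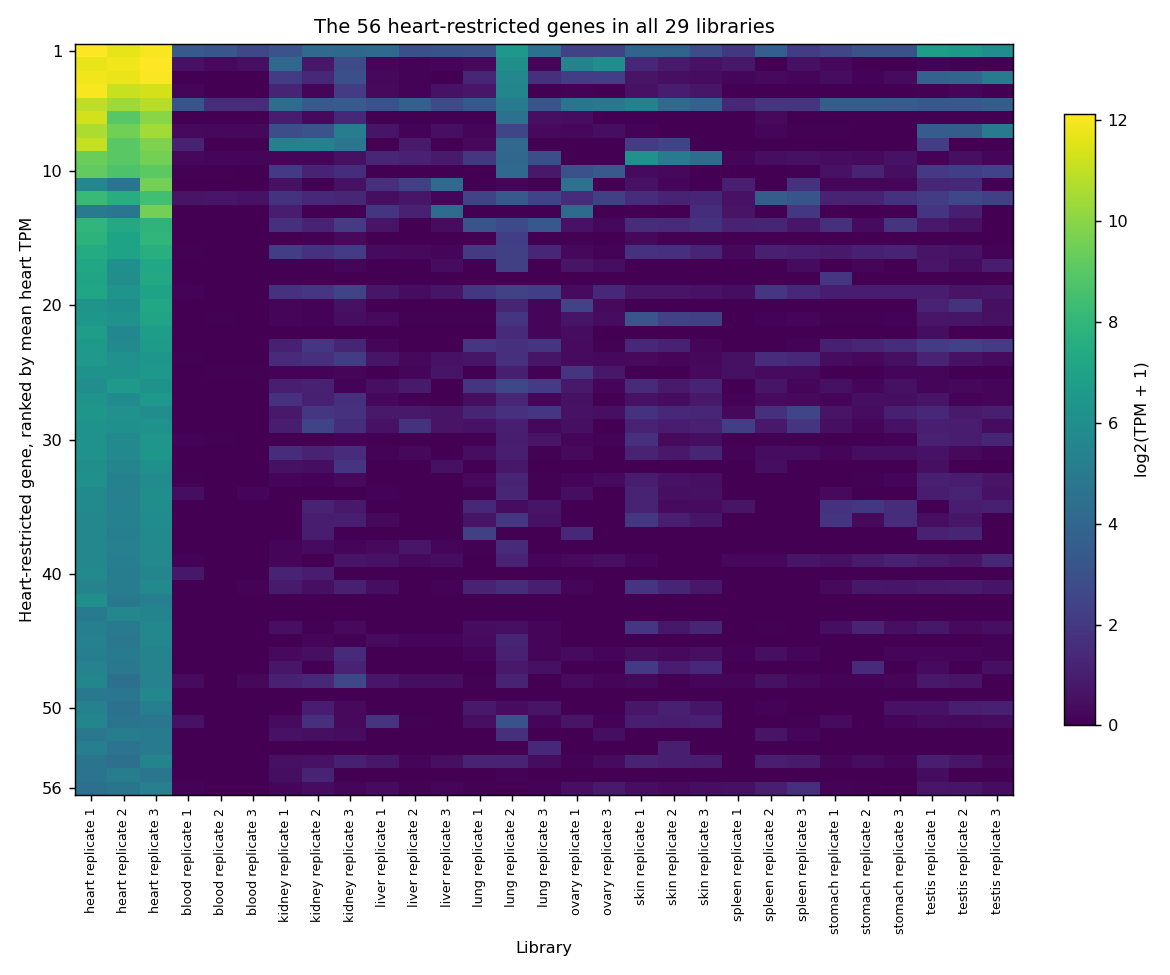
Each row is 1 of the 56 heart-restricted genes, ranked by mean heart TPM, each column is a library, and the colour is log2(TPM + 1). The 3 heart columns are brighter than the others in every row and brightest at the top, and among the other columns lung replicate 2 is the brightest on average over the first 10 rows.

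The most abundant member was TRINITY_DN17_c4_g2, at 4494, 3343 and 4198 TPM in heart replicates 1, 2 and 3. Outside heart it was found in all 26 libraries, from 2.93 to 108 TPM. The 3 testis libraries, at 108, 88.8 and 60.8 TPM, and lung replicate 2, at 86.3 TPM, were the highest of these.

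TRINITY_DN4771_c0_g1 followed at 3338, 3776 and 4396 TPM in the heart libraries. It was listed at 0 in 5 of the other 26 libraries and had a median of 0.324 TPM there. Its highest values outside heart were 65.2 TPM in lung replicate 2 and 64.7 and 41.4 TPM in ovary replicates 3 and 1, and kidney replicate 1 held 16.3 TPM. The other lung libraries held 0.192 and 0.129 TPM, so lung was high in 1 library and ovary in both.

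Among the 19 genes at 100 TPM or more, those with the smallest share in any other library were TRINITY_DN8361_c1_g1 and TRINITY_DN18340_c0_g2. The former was at 3717, 3527 and 4241 TPM in heart, and its highest other library, lung replicate 2, held 48.0 TPM, which is 1.25% of the heart mean. The latter was at 4201, 2211 and 2622 TPM in heart and at 46.0 TPM in lung replicate 2, or 1.53% of the heart mean. Without lung replicate 2 the highest values were 30.7 TPM in testis replicate 3 for the former and 3.49 TPM in kidney replicate 3 for the latter. In both genes every heart library thus lay far above all 26 others.

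For all 56 members the 3 heart libraries lay above all 26 others, a pattern that 2.57% of all genes had and that the rule nearly imposes. The closest was TRINITY_DN143_c0_g3, whose lowest heart library was 1.07 times its highest other library. The highest other library was below 5% of the heart mean for 38 members (40 without lung replicate 2), and below 10% for 53. Its median over the members was 3.91% of the heart mean, or 3.39% without lung replicate 2. The 2 members with the largest share were TRINITY_DN8508_c1_g1, at 7.36 TPM in lung replicate 2 (22.8% of its heart mean of 32.2 TPM), and TRINITY_DN88_c9_g1, at 5.26 TPM in kidney replicate 3 (14.4% of 36.4 TPM). Both were thus among the less abundant members.

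At the other end, 3 members were listed at 0 in all 26 other libraries. Their heart means were 43.0, 41.0 and 34.2 TPM, in the lower part of the list. A further contrast was given by the 4 members found in all 26 other libraries, 2 of which were the first and the fifth of the list by heart mean. Members were listed at 0 in a median of 9 of the 26 libraries, and 20 members were at 0 in 13 or more of them. The same counts over all genes are not given here, so these have no background. With unknown depth, a listed 0 does not show that a gene is absent.

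The limits of the rule lie in a continuous range of genes. TRINITY_DN48308_c0_g1 was nearest inside the limit of 20 TPM, at 20.7, 24.96 and 38.5 TPM in heart, and TRINITY_DN11832_c0_g3 was nearest outside, at 21.7, 19.5 and 41.1 TPM. TRINITY_DN7194_c0_g1 was nearest inside the limit of 5%, with a skin median of 30.7 TPM at 4.66% of its heart mean of 658 TPM. TRINITY_DN99_c5_g1 fell outside with an ovary value at 5.00% of its heart mean. Between 4% and 5% there were 9 members, and 9 further genes that met the other limit lay between 5% and 6%.

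The heart libraries ordered the members alike but did not hold them at equal levels. Pearson's r of log2 TPM across the 56 genes was 0.969 between heart replicates 1 and 2, 0.909 between 1 and 3 and 0.904 between 2 and 3. Spearman's r, which uses ranks only, was lower, at 0.910, 0.865 and 0.831 for the same pairs. These r describe pairs of libraries, since genes are not independent replicates and the levels span a wide range. The coefficient of variation over the 3 libraries had a median of 23.4%, with quartiles of 19.3% and 34.7%. For the other 4637 genes at 20 TPM or more in each heart library, the median was 15.7%. The highest library was less than 2 times the lowest for 45 members (80.4%), and for 90.5% of those other genes.

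Heart replicate 2 was the lowest library for 48 of the 56 members (85.7%), and for 62.9% of the other 4637 genes. Its median member was at 76.1% of the heart mean, while heart replicates 1 and 3 were at 106% and 114%. For the other genes the median in heart replicate 2 was 89.5% of the heart mean. After each library was rescaled by its median-of-ratios factor, heart replicate 2 was lowest for 41 members (73.2%) and for 30.9% of the other genes, with its median member at 85.8%. Among the heart libraries, heart replicate 2 also held the most RNA of genes that are high in blood. A list of 137 such genes, set after values were seen as 20 TPM or more in each blood library with every other tissue median except heart below 20% of the blood mean, took 5.94% of TPM there. It took 3.47% and 1.53% in heart replicates 1 and 3, between 0.059% and 3.78% in the libraries of other tissues, and between 16.7% and 22.4% in blood. The list caps those other tissues but not heart, so it compares the heart libraries with each other and not with those tissues. Of its genes, 0 of 137 were at 0 in heart replicate 2, 3 in replicate 1 and 2 in replicate 3. The median gene of the list differed less than the sum, at 17.5%, 14.0% and 9.60% of the blood mean in heart replicates 2, 1 and 3. Among the heart libraries, 73 of the 137 genes were highest in replicate 2, 50 in replicate 1 and 14 in replicate 3. The part of blood RNA in the lower levels of the 56 genes was not tested.

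**Figure D2:**
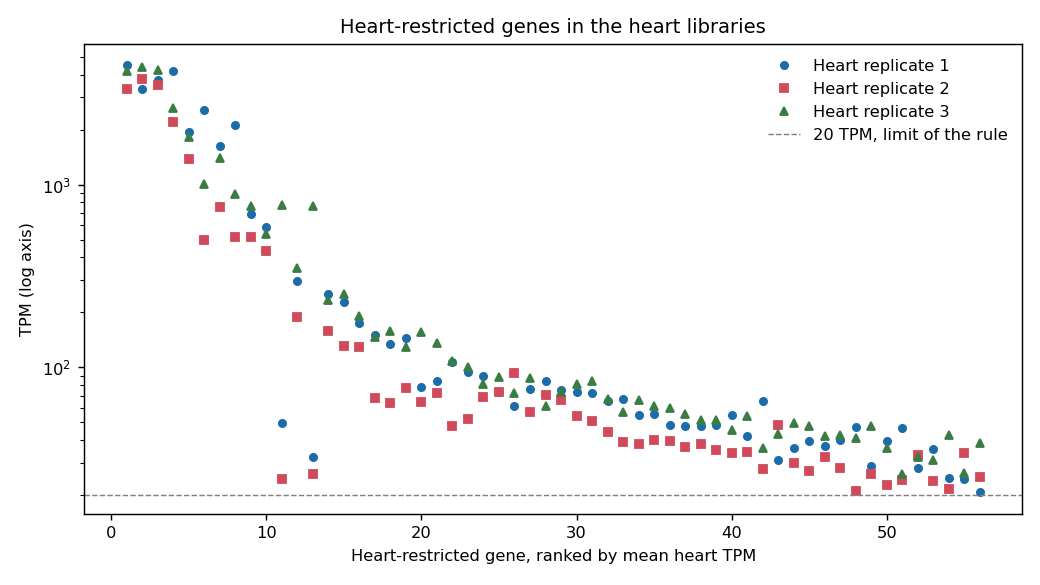
TPM (log axis) of each of the 56 genes in heart replicates 1, 2 and 3, ranked by mean heart TPM, with the limit of 20 TPM dashed. Heart replicate 2 is the lowest library for 48 of the 56 genes, and the genes ranked 11 and 13 stand out with heart replicate 3 far above the others.

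Members differed widely in how far the heart libraries spread. The steadiest was TRINITY_DN2930_c2_g1, at 75.2, 66.3 and 73.4 TPM, with a coefficient of variation of 6.53%. The least steady was TRINITY_DN143_c0_g1, at 32.4, 26.2 and 766 TPM in heart replicates 1, 2 and 3, with a coefficient of variation of 155%. TRINITY_DN143_c0_g3, from the same assembly component, followed it at 49.3, 24.6 and 771 TPM. Both genes were therefore high in 1 heart library. Without heart replicate 3 their heart means were 29.3 and 36.9 TPM in place of 275 and 282 TPM. Their ovary medians, at 9.14 and 11.5 TPM, exceed the 5% limit against those lower means. The 2 genes thus met the rule only through heart replicate 3. Outside heart, each peaked in 1 library of liver and 1 of ovary: liver replicate 3 held 18.8 and 16.5 TPM, and ovary replicate 1 held 18.3 and 23.1 TPM. The other liver and ovary libraries held at most 2.70 and 3.91 TPM. TRINITY_DN99_c5_g1, the gene just outside the 5% limit, was also uneven, from 35.8 TPM in heart replicate 2 to 924 TPM in heart replicate 3.

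In contrast, 2 abundant members were at least 2 times higher in heart replicate 1 than in both other heart libraries. TRINITY_DN7106_c2_g1 was at 2561, 500.4 and 1006 TPM and TRINITY_DN8232_c1_g1 at 2128, 519 and 886 TPM in heart replicates 1, 2 and 3. These genes were seen to share this order after their values were known. Of the other 4637 genes, 31 (0.669%) had such an excess in heart replicate 1. No member had such an excess in heart replicate 2, which 9 of the other 4637 genes had. In heart replicate 3 such an excess was seen for 3 members and for 70 of the other genes.

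Outside heart, the members were low in blood and highest in lung replicate 2. In blood the summed TPM of the 56 genes was 22.97, 11.97 and 8.995 in replicates 1, 2 and 3, and 34, 40 and 39 of the genes were listed at 0. Of all genes, 31.8%, 34.8% and 36.5% were at 0 in these blood libraries. Lung replicate 2 held 435 TPM, against 60.4 and 74.1 TPM in lung replicates 1 and 3. In it 39 members were at 1 TPM or more, compared with 15 and 13 in the other lung libraries, and 9 were at 0. Of all 53113 genes, 30117 were at 1 TPM or more in lung replicate 2, against 27702 and 28930 in lung replicates 1 and 3. In lung replicate 2, 32.4% of all genes were at 0. This library exceeded both other lung libraries for 42 of the 56 members, and for 35.7% of the other genes found in lung. The quartiles of its share of the heart mean were 1.06% and 3.16%, and the median over the 8 most abundant members was 1.61%.

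In all other libraries the sum was below that of lung replicate 2, and in spleen replicate 1 it was within the range of blood. Summed TPM was 125, 114 and 151 in kidney, 180, 158 and 158 in testis, 177, 94.8 and 67.5 in skin, and 142 and 121 in ovary replicates 1 and 3. It was 42.1, 34.5 and 56.5 in liver, 16.1, 41.8 and 37.8 in spleen, and 35.3, 34.8 and 38.6 in stomach. Since the first few genes dominate these sums, the median share of the heart mean tells more of a typical member. It was 0.384%, 0.563% and 0.457% in kidney, 0.691%, 0.380% and 0.199% in testis, and 0.337%, 0.332% and 0.279% in skin. Ovary replicates 1 and 3 were at 0.232% and 0.031%, stomach was between 0.029% and 0.075%, liver between 0% and 0.028%, spleen between 0% and 0.008%, and blood at 0%. The range of testis overlapped those of kidney and of skin. Kidney lay above skin as deposited, but after rescaling kidney replicates 1, 2 and 3 were at 0.296%, 0.542% and 0.425% and skin was between 0.395% and 0.407%, so these tissues overlapped. As deposited, each library of the 3 tissues lay above every library of blood, liver, spleen and stomach.

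**Figure D3:**
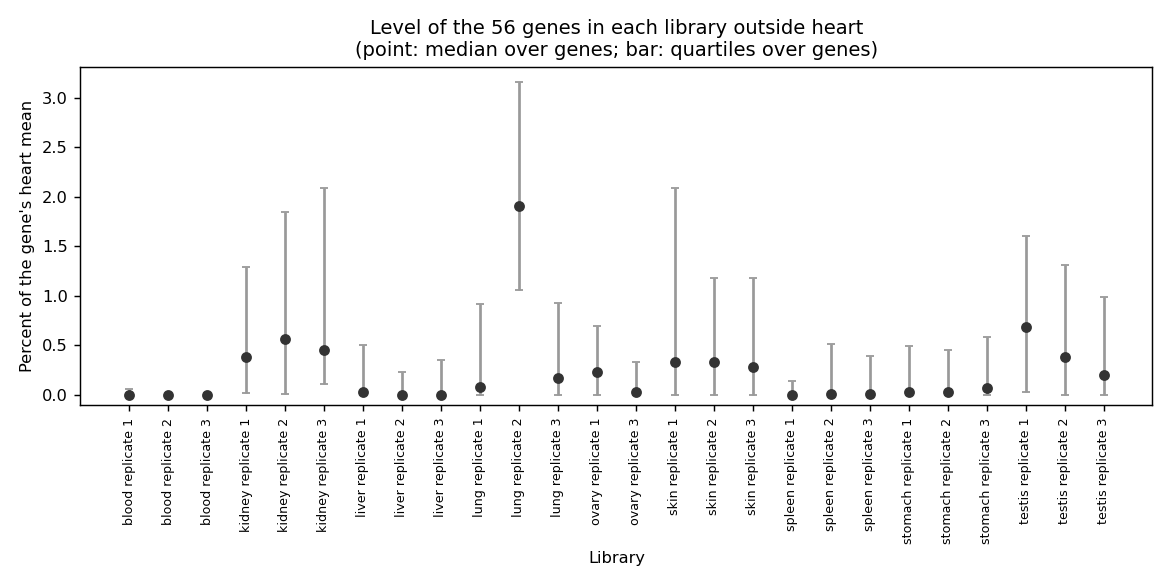
For each of the 26 libraries outside heart, the point is the median over the 56 genes of the level as a percent of the gene's heart mean, and the bar spans the quartiles over genes. Lung replicate 2 stands at 1.91%, above all other libraries, while blood is at 0% in all 3 libraries.

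The rule caps these tissues at 5% of the heart mean but does not set their order. The 9 tissues outside heart were thus tested among themselves without the heart libraries. The cap also bounds how far a member can rise in a tissue, most tightly for members of low heart mean. Most tested genes carry no such cap, so the shares of members and of all genes called higher are not fully alike. The genes that reached 1 TPM in 2 or more of the 26 libraries entered limma on log2(TPM + 1), and 43 of the 56 members passed this filter among 49848 genes. By a moderated F test over the 9 tissues, 25 of the 43 differed (Benjamini-Hochberg adjusted p under 0.05, and a highest tissue at least 1 above the mean of the other 8 on the log2 scale). The share of all tested genes called was 65.0%, and that of the members was 58.1%. With a pseudocount of 0.1, which gives low values more weight, 36 members (83.7%) differed, against 66.5% of all tested genes, so the members' place against the background turned with this choice. The same limits were used to set every tissue against the average of the remaining 8.

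In lung, 9 of 43 members were higher, which is 20.9% against 9.51% of all tested genes. With a pseudocount of 0.1 the count was 10 in lung, 12 in kidney, 12 in skin and 11 in testis, so the order of the tissues by calls depended on it. The share of all tested genes in lung at that pseudocount is not given here. Without lung replicate 2 there were 5 of 39 (12.8%), against 8.76% of all tested genes, so the excess was smaller without that library. The largest lung difference was that of TRINITY_DN5_c83_g1, at 7.64, 5.36 and 8.92 TPM in the lung libraries and 252, 158 and 233 TPM in heart. All lung libraries of this gene lay above the other tissues, whose highest value was 3.48 TPM in kidney replicate 3. Lung minus the mean of the other 8 was 2.18 ± 0.27 (log2, SE; limma, Benjamini-Hochberg adjusted p = 1.04e-05). By contrast the lung call of TRINITY_DN8361_c1_g1 was lost without lung replicate 2, where the difference fell from 1.63 to 0.25 (limma, Benjamini-Hochberg adjusted p = 0.034 and 0.582).

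Skin had 5 of 43 members higher (11.6%, against 6.26% of all tested genes), and 2 (4.65%, against 4.94%) without skin replicate 1. The skin count was 12 (27.9%, against 6.89%) at the pseudocount of 0.1. TRINITY_DN7194_c0_g1, the member nearest to the 5% limit, was at 70.6, 30.7 and 18.6 TPM in skin, 2.78, 15.1 and 6.61 TPM in lung, and at most 1.48 TPM in the other tissues. Its heart values were 689, 519 and 765 TPM. Skin minus the mean of the other 8 was 4.43 ± 0.32 (log2, SE; limma, Benjamini-Hochberg adjusted p = 7.3e-10). TRINITY_DN27392_c1_g1, the other member that kept its skin call without skin replicate 1, was at 8.12, 4.18 and 3.93 TPM in skin. In skin replicate 1, 6 members exceeded 5% of their heart mean, but none did so in the other skin libraries. The rule lets a member exceed 5% in only 1 skin library, so only which library it was is not fixed.

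Kidney had 8 of 43 members higher (18.6%, against 15.6%), 5 of 41 (12.2%) without kidney replicate 3, against 12.2% of all tested genes, and 3 of 40 after rescaling, against 10.2%. At the pseudocount of 0.1 it had 12 of 43 (27.9%, against 17.2%). The largest difference was that of TRINITY_DN8232_c1_g1, at 38.3, 38.9 and 26.1 TPM in kidney, next to 16.8 TPM in lung replicate 2 and at most 4.67 TPM elsewhere outside heart. Kidney minus the mean of the other 8 was 4.57 ± 0.62 (log2, SE; limma, Benjamini-Hochberg adjusted p = 5.83e-06). The assembly component of this gene holds 3 further genes, at means of 208, 28.6 and 14.9 TPM in kidney and 2.26, 0 and 0 TPM in heart. Reads shared between near-identical sequences could be split among them, and the part of these genes in the kidney values was not tested.

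The gonads had 5 of 43 members higher each (11.6%), against 14.5% of all tested genes in ovary and 20.4% in testis. Testis had 11 (25.6%, against 21.1%) at the pseudocount of 0.1, above and no longer below the share of all genes. TRINITY_DN4771_c0_g1 had the largest difference in ovary, 4.86 ± 0.90 (log2, SE; limma, Benjamini-Hochberg adjusted p = 4.01e-04). Ovary calls numbered 3 after rescaling, a setting for which the share of all tested genes in ovary is not given here. Fewer members were also called without ovary replicate 1, in a fit that leaves 1 ovary library. In testis, TRINITY_DN17_c4_g2 was higher by 3.12 ± 0.46 and TRINITY_DN8361_c1_g1 by 3.20 ± 0.52 (log2, SE; limma, Benjamini-Hochberg adjusted p = 2.64e-05 and 8.88e-05). The latter was at 13.1, 14.5 and 30.7 TPM in testis, so 2 of the 3 most abundant heart-restricted genes had their highest tissue median outside heart in testis, and the other had it in ovary.

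Liver and stomach had 1 of 43 members higher each (2.33%), against 6.28% and 4.28% of all tested genes. With a pseudocount of 0.1 stomach had 4 (9.30%, against 4.64%), above and no longer below the share of all genes. The liver call was TRINITY_DN143_c0_g3, with liver at 2.06, 3.91 and 16.5 TPM, and it was lost without liver replicate 2, without liver replicate 3 and with the heart libraries in the fit. Spleen had 0 (background 4.23%) and blood had 0 (background 8.35%) in limma. With an unadjusted limma p under 0.05 and any positive difference there were 4 and 0 members higher, respectively. The share of all tested genes at that looser limit was not computed, so these counts have no background. Blood was called lower for 7 of 43 members (16.3%), against 17.1% of all tested genes, and for 4 (against 13.8%) without blood replicate 3. With a pseudocount of 0.1 it was called lower for 25 (58.1%, against 22.1%). A member that is low in all 9 tissues cannot fall far on the scale of log2(TPM + 1).

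**Figure D4:**
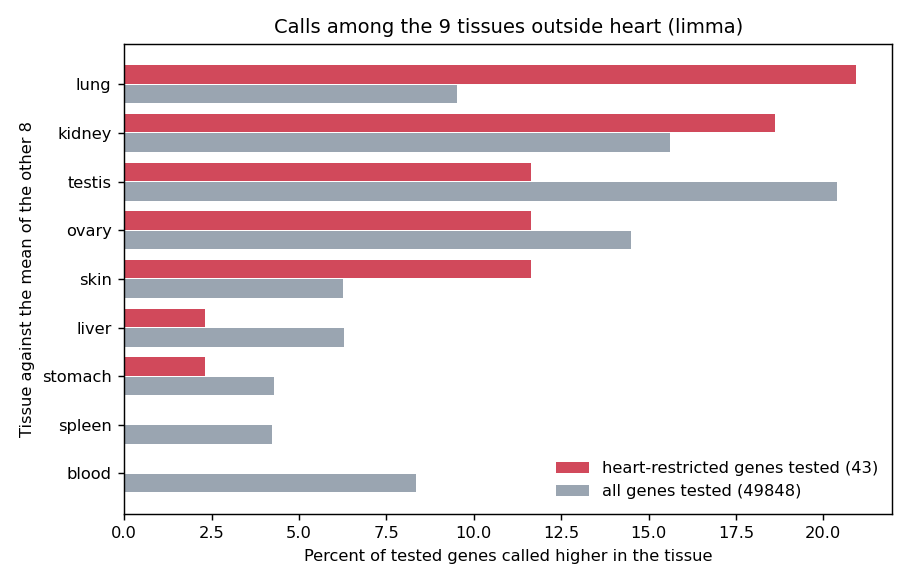
Percent of tested genes called higher in each tissue against the mean of the other 8 tissues outside heart, for the 43 heart-restricted genes tested and for all 49848 genes tested. Lung (20.9% against 9.51%) and skin (11.6% against 6.26%) show the largest excess of members here, which falls to 12.8% against 8.76% for lung without lung replicate 2 and to 4.65% against 4.94% for skin without skin replicate 1.

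The members were spread over the assembly. The 56 genes lay in 54 assembly components, of which 2 held a pair of members and none held more. The other pair besides that of TRINITY_DN143_c0_g1 was TRINITY_DN4724_c1_g1 and TRINITY_DN4724_c1_g2, at 134, 63.4 and 159 TPM and at 107, 47.5 and 108 TPM in the heart libraries. Alone in their component were 36 members (64.3%), against 76.7% of all genes. A further 18 members shared 17 components with 26 genes outside the list. Of these 26, 3 (11.5%) were highest in heart, against 8.93% of all genes. Genes that met the rule had already been taken out of the 26 as members. The 2 shares thus cannot show whether genes of these components are more often highest in heart. Those 3 genes averaged less than 20 TPM in heart and at most 0.395 TPM in any other tissue. The heart mean of the 26 genes had a median of 1.53 TPM. The exception was a gene in the component of TRINITY_DN17_c4_g2, which averaged 106 TPM in heart and 1140 TPM in blood. Assembled sequences of 1 component can be fragments of 1 gene or near-identical copies, so the levels of such members are uncertain.

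By the same rule, skin had 234 genes and stomach 89, which took 28.2% ± 3.42 of skin TPM and 36.2% ± 7.98 of stomach TPM (SD, n = 3 each). The heart list was thus shorter than these and took a smaller share of its tissue, in libraries whose ranges of that share did not overlap. It was not the shortest of the 10, as lung had 26 genes, spleen 46 and blood 2, and its share overlapped that of the testis list, which took 1.51% to 11.4% of testis TPM. The median gene averaged 71.7 TPM in the heart list, 184 TPM in the skin list and 318 TPM in the stomach list. The first gene of the list held 15.98% of the summed mean in heart, 31.0% in skin and 29.6% in stomach. These lists were chosen by level, so no test was applied to the differences.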

How the data were processed

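Values are TPM as the authors deposited them, named so in the column headers; each library sums to 1000000. For the quantifier, its version and any filter, the status is: not given in the sources used here. IDs look like those of the Trinity assembler. Per the labels' protocols, mRNA was selected on poly-T beads. The labels gave tissue and replicate number. The members and lists were chosen with earlier results of these data known. Values were read as deposited. Tests among the 26 libraries outside heart used limma 3.58.1 in R 4.3.3 on log2(TPM + 1), with a mean per tissue, an intensity trend and Benjamini-Hochberg adjustment over all 49848 genes that reached 1 TPM in 2 or more of them. The calling step was tested on simulated data, with kidney raised in genes that averaged 1 or more on that scale. The kidney contrast recovered 8% of 2-fold and 70% of 4-fold changes, and the F test 0% and 34%. These folds are of TPM + 1, not of TPM. In such genes 2-fold differences were thus mostly missed. A 2-fold change just equals the log2 limit of 1, so part of the misses follows from that limit. At 8-fold and 16-fold the kidney contrast recovered 88% and 98%, and the F test 56% and 78%. The rates do not carry over to members that lie lower outside heart, where a fold of TPM is a smaller step on that scale. Levels, lists and plots were made with pandas 2.3.3, numpy 2.4.6 and matplotlib 3.10.9 in Python 3.11.15. Alternatives were a pseudocount of 0.1, no filter, median-of-ratios rescaling, the replicate number as a block, heart libraries in the fit, other limits of the rule, and libraries left out. Named genes were those of highest level, of smallest and largest share elsewhere, nearest each limit, of lowest and highest variation, of largest difference in the 3 tissues with most calls (ovary tied with skin and testis), and of the component with most members. TRINITY_DN99_c5_g1 and TRINITY_DN11832_c0_g3 are no members. TRINITY_DN7106_c2_g1, TRINITY_DN27392_c1_g1 and the pair TRINITY_DN4724_c1_g1 and TRINITY_DN4724_c1_g2 were named after their values were seen.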

Additional observations from a re-analysis of the deposited data

How the results depend on the processing

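The number of heart-restricted genes followed the limits of the rule: 92 at 10 TPM, 28 at 50 TPM, 25 at 2% of the heart mean and 101 at 10%. It was 53 with tissue means and 47 after rescaling, 44 of which were among the 56. Leaving out 1 library gave 52 to 82 genes, the latter without heart replicate 2. Without heart replicate 3 there were 53 genes, 51 of which were among the 56. Rescaling moved the median share in skin replicates 1, 2 and 3 to 0.395%, 0.407% and 0.395%, and in stomach replicates 2 and 3 to 0.064% and 0.110%. With the members chosen without the library read, skin replicates 1, 2 and 3 were at 0.407%, 0.103% and 0.195%. Members called higher after rescaling numbered 3 in kidney, 2 in liver, 3 in ovary, 3 in spleen, 2 in stomach and 3 in testis. With a pseudocount of 0.1 they numbered 2 in liver, 12 in skin, 2 in spleen, 4 in stomach and 11 in testis, and 25 were called lower in blood in place of 7. With heart libraries in the fit liver had 0, and it had 2 when liver replicate 2, testis replicate 1 and kidney replicate 1 were all left out. With 1 library left out, the calls ranged from 5 to 11 in kidney, 0 to 2 in liver, 5 to 10 in lung, 2 to 6 in skin, 0 to 3 in spleen and 1 to 2 in stomach, and 4 to 9 for lower in blood. Ovary is not given here, since leaving out either of its libraries leaves 1. The number of members tested and the share of all tested genes called also moved with the setting. They are not given beside these counts, so no count here shows an excess or a lack of members. These counts alone thus do not set the members apart from all genes. Of the named calls in the 3 tissues with most calls, none changed direction under these settings. Same-numbered libraries of different tissues had a mean correlation of deviations of 0.014 (range -0.179 to 0.242). For libraries of other numbers it was -0.007 (range -0.242 to 0.2025). Such values cannot show whether same-numbered libraries came from the same animal. With the replicate block 24 members differed among the 9 tissues in place of 25, and the counts of higher calls were those given. The causes were not tested.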
